A study of Sus scrofa with 120 samples.

Results

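The genes described here are those of sterol and fatty acid synthesis, with the genes that control them and that move sterol through and out of the cell. A list of 35 gene symbols was matched to the gene names in the deposited count table, and 34 of the 35 had a line there, out of 31907 gene identifiers. The missing symbol, EBP, had an identifier only through a separate gene name table and is not counted among the 34. The genes were chosen for their role, with earlier results of these data known.

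Primary chondrocytes, the cells that make cartilage matrix, were taken from pig femoral cartilage, embedded in 2% agarose and sequenced for RNA as engineered constructs. The series gave 120 libraries in 30 groups of 4 and asks which genes respond when the calcium-permeable channels TRPV4 and PIEZO1 are engaged. The TRPV4 experiment had 6 conditions: free swelling in DMSO vehicle, GSK101 at 1 nM to open TRPV4, GSK205 at 10 uM to block it, IL-1 at 1 ng/mL, and 3 h of cyclic loading (10% deformation, 1 Hz) alone or together with GSK205. The PIEZO1 experiment had 3 siRNA states: no transfection (NT), a control siRNA without a target (siNTC), and siRNAs to PIEZO1 (siPIEZO1). These constructs were then kept in DMSO vehicle, compressed once and slowly to 80% deformation, or given Yoda1, an opener of PIEZO1, at 5 uM. All groups were harvested at 3 h and at 9 h after the stimulus began. For GSK205 and Yoda1 the doses are in uM in the series description, whereas the protocol attached to each sample has mM. That protocol also names IL-1a where the description names IL-1, and the titles say transduced where the protocol says transfected.

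Cholesterol is built from acetyl-CoA. The mevalonate segment (ACAT2, HMGCS1, MVK, PMVK, MVD, IDI1, FDPS) makes isoprenoid units, and the squalene and sterol segment (FDFT1, SQLE, LSS, CYP51A1, TM7SF2, MSMO1, NSDHL, HSD17B7, SC5D, DHCR7) joins and reshapes them into cholesterol. When membranes of the endoplasmic reticulum are low in sterol, the escort protein SCAP carries the SREBP transcription factors (genes SREBF1 and SREBF2) to be cut and released, and they switch on most of these enzymes. INSIG1 and INSIG2 hold SCAP back when sterol is plentiful. STARD4 carries sterol between membranes and NPC1 lets it out of lysosomes. ABCA1 and ABCG1 pump it out of the cell, MYLIP limits lipoprotein uptake, and these last 3 are targets of the oxysterol-sensing nuclear receptor LXR. Fatty acids start from the same acetyl-CoA, through ACLY, ACACA and FASN, and are lengthened or desaturated by ELOVL6, SCD, FADS1 and FADS2. Chondrocytes live in a tissue without blood vessels, and both make and export cholesterol.

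Library totals were 20651530 to 80223797 counts in the TRPV4 experiment and 36807992 to 66240251 in the PIEZO1 experiment. The experiments used different library kits, so they were fitted apart and levels were not tested between them. Counts-per-million (CPM) are not corrected for gene length, so levels are compared within a gene only. All 34 genes passed the filter on low counts, except ABCG1 in the PIEZO1 experiment at 3 h, where 33 were tested. The 9 chondrocyte markers summed to 68088 to 125209 CPM over the TRPV4 experiment and to 15285 to 43795 over the PIEZO1 experiment. The markers of other cell types gave these summed levels in the TRPV4 and PIEZO1 experiments: 48.01 to 115 and 2.29 to 13.9 CPM for 6 adipocyte genes, 165 to 297 and 318 to 1323 for 5 synovial fibroblast genes, 21.5 to 97.1 and 5.38 to 57.8 for 5 leukocyte genes, and 2.37 to 6.02 and 2.23 to 9.29 for 4 endothelial genes. The adipocyte gene FABP4 and the leukocyte genes PTPRC and CD3E stayed under 1 CPM in every library, and LYZ was at 0 throughout. The leukocyte sums thus came mainly from CD14 and CD68. The labels do not tie replicates to animals, and p-values therefore reflect the spread of libraries within groups, which may be technical. That spread was estimated over all groups of a fit together. In bulk RNA, fewer cells of a type and less RNA per cell cannot be told apart. Genes were called where edgeR's quasi-likelihood p, adjusted by Benjamini-Hochberg across every gene tested, was under 0.05. Fold changes are on the log2 scale and given ± their standard error, with 4 libraries in each group (n = 4).

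Cyclic loading raised most of the sterol pathway at 3 h. SC5D, a late sterol desaturase, INSIG1, the sterol-sensing brake on SREBP, HMGCS1, which makes HMG-CoA, and the sterol carrier STARD4 were among 18 genes that rose, and the exporters ABCA1 and ABCG1 fell. These 20 of 34 genes compare with 10.2% of all 16562 genes tested (7.86% higher and 2.30% lower). The median log2 fold change of the 34 genes was 0.20, against 0.01 over all genes tested. By segment, 5 of 7 mevalonate genes, 7 of 10 squalene and sterol genes, 1 of 5 control genes and 3 of 7 fatty acid genes rose, and in sterol transport and export 2 rose and 2 fell. Loaded libraries at 3 h were deeper than their controls, at 31848889 to 66758428 counts against 20651530 to 29904509. The part of depth in the result was not tested.

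HMGCS1 (ENSSSCG00000016872, chromosome 16, 27936225 to 27957261 of Sscrofa11.1) stood at 443, 428, 412 and 450.1 CPM in the loaded libraries at 3 h, against 280.4, 302, 302 and 278 in DMSO (log2 fold change 0.58 ± 0.07, adjusted p = 5.2e-07). SC5D (ENSSSCG00000028517, chromosome 9, 48357115 to 48372391) gave 103, 102, 104 and 104 CPM against 65.3, 63.5, 58.98 and 58.9 (log2 fold change 0.74 ± 0.06, adjusted p = 5.0e-10). Every loaded library of these genes lay above every DMSO library. CYP51A1, the lanosterol demethylase, followed with 238, 235, 235 and 259 CPM against 176, 179, 169 and 175 (log2 fold change 0.47 ± 0.05, adjusted p = 2.2e-08). INSIG1 (ENSSSCG00000016420, chromosome 18, 2885494 to 2898758) stood at 562, 544, 476 and 515 CPM against 335, 319.9, 316 and 352 (log2 fold change 0.66 ± 0.06, adjusted p = 5.7e-09). The other enzymes that rose did so by 0.16 to 0.56 on the log2 scale, among them MSMO1 (0.56 ± 0.07), SQLE (0.54 ± 0.07), FDPS (0.52 ± 0.12) and MVD (0.51 ± 0.10). The calls of FADS1 and HSD17B7, the smallest in the set, were lost in 4 and 6 of the 8 fits that left out 1 library (highest adjusted p = 0.14 and 0.13).

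STARD4 (ENSSSCG00000031518, chromosome 2, 116235821 to 116257143) had the largest rise under loading. Its loaded libraries held 83.7, 77.1, 65.8 and 74.7 CPM and its DMSO libraries 41.2, 41.7, 41.7 and 38.8, a 1.85-fold difference (log2 fold change 0.89 ± 0.09, adjusted p = 3.4e-08). ABCA1 (ENSSSCG00000005423, chromosome 1, 246144277 to 246278492) went the other way, at 32.7, 31.4, 33.99 and 28.2 CPM against 45.7, 35.4, 50.9 and 41.5 (log2 fold change -0.46 ± 0.09, adjusted p = 6.9e-04). ABCG1 (ENSSSCG00000027745, chromosome 13, 205561897 to 205628428) stood at 7.94, 7.89, 6.86 and 6.85 CPM against 11.7, 8.70, 9.89 and 13.2 (log2 fold change -0.55 ± 0.12, adjusted p = 0.0027). For both exporters all 4 loaded libraries lay under all 4 DMSO libraries. MYLIP, a further LXR target, was not called (-0.14 ± 0.10). SREBF1 and SREBF2 did not pass the test either (-0.05 ± 0.11 and -0.15 ± 0.08).

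Genes of the same pathways that were not among the 34 were taken from further lists, chosen like the 34 with earlier results of these data known. Of 10 other sterol and uptake genes, 3 rose and none fell with loading at 3 h. Of 16 other fatty acid genes 4 rose, including FADS3 (0.43 ± 0.08). None of the 5 genes that process SREBP was called.

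At 9 h, after loading had ended, 19 of the 34 genes were higher than in DMSO and 2 were lower, against 23.7% of all genes called (12.5% higher, 11.2% lower). The median log2 fold change of the 34 genes was 0.19, against 0.01 over all genes tested. INSIG1 stood at 418, 421, 421 and 439 CPM against 342, 330.0, 332 and 319 (log2 fold change 0.36 ± 0.04, adjusted p = 2.0e-07). FDFT1, squalene synthase, stood at 224, 211, 217 and 229 against 186, 164, 167 and 161 (log2 fold change 0.38 ± 0.05, adjusted p = 8.9e-07). MVD, the mevalonate diphosphate decarboxylase, stood at 191, 196, 196 and 184 against 149, 139, 134 and 139 (log2 fold change 0.45 ± 0.06, adjusted p = 1.9e-06). None of these groups overlapped. The genes that fell were SREBF2, at 195, 211, 210.1 and 196 CPM against 276, 273, 265 and 257 (log2 fold change -0.40 ± 0.06, adjusted p = 3.9e-06), and ACACA, acetyl-CoA carboxylase (-0.22 ± 0.05). The calls of 6 small rises (DHCR7, FADS2, HSD17B7, PMVK, SC5D and SQLE) were lost in at least 2 of the 8 fits that left out 1 library. The synovial fibroblast markers summed to 194 to 221 CPM with loading at 9 h and 165 to 182 in DMSO, and their part in the result was not tested.

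The effect of loading was tested between the times in a model of both. It was smaller at 9 h than at 3 h for SC5D (-0.57 ± 0.08, adjusted p = 3.3e-06), STARD4 (-0.55 ± 0.12, adjusted p = 0.0026), SQLE (-0.34 ± 0.09) and INSIG1 (-0.28 ± 0.08). For ABCA1 the difference ran upwards (0.52 ± 0.12, adjusted p = 0.0042): it was lower with loading at 3 h and gave 22.6, 27.97, 22.9 and 22.5 CPM at 9 h, overlapping DMSO at 26.5, 24.1, 22.4 and 21.2. These 5 of 34 genes compare with 10.1% of all genes, and without the libraries numbered 2 the count was 2.

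**Figure D1:**
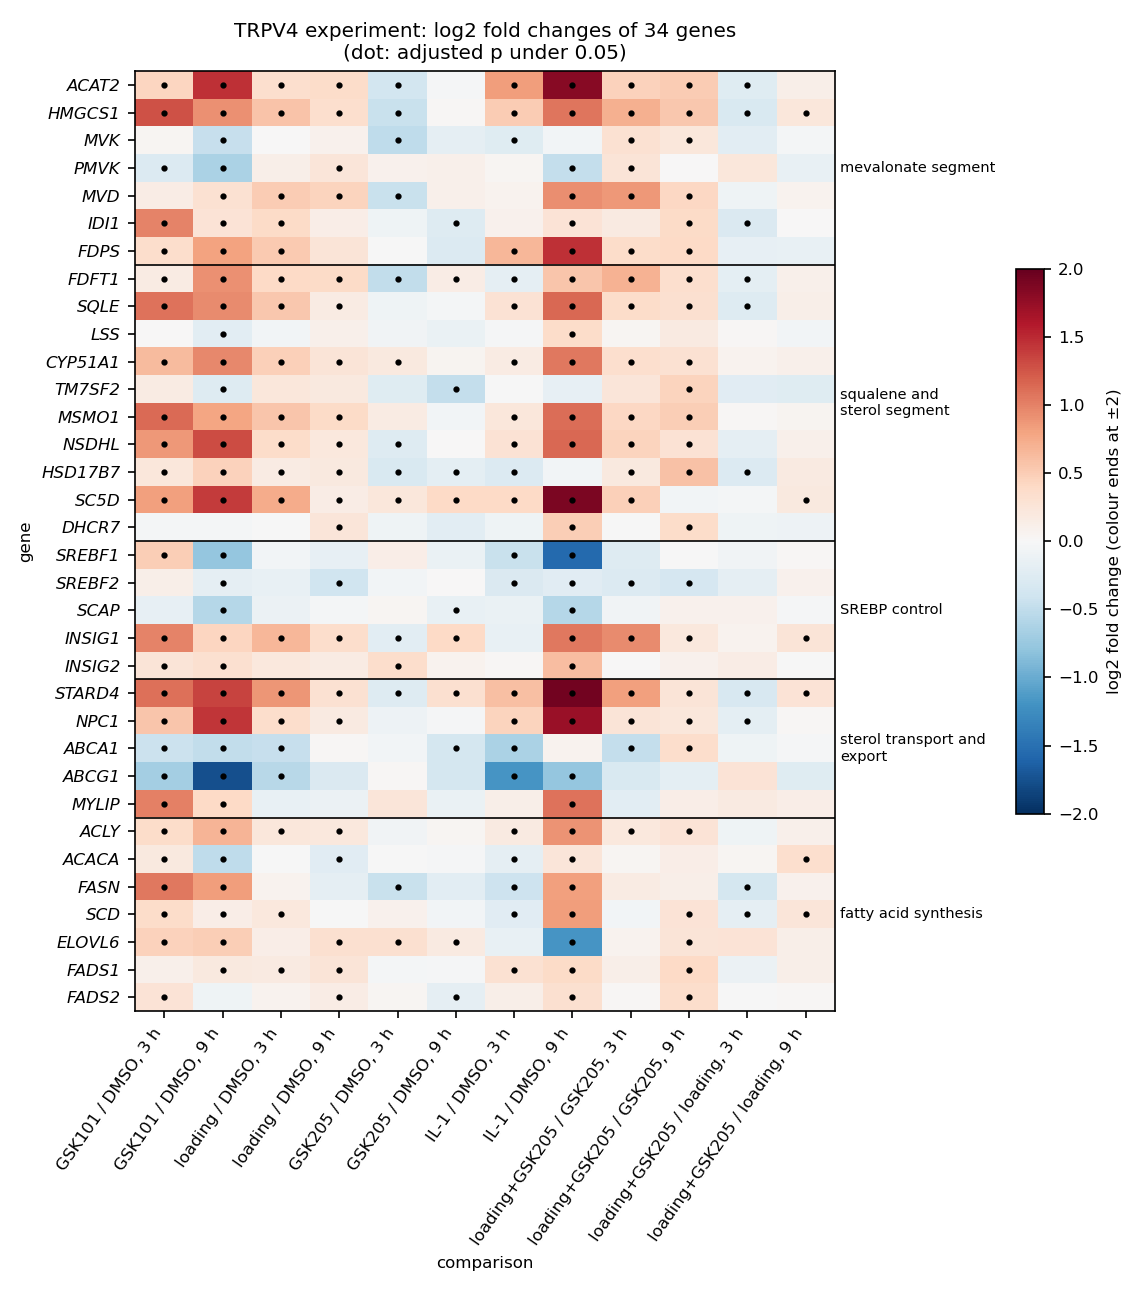
Log2 fold change of the 34 genes (rows, grouped by role) in 12 comparisons of the TRPV4 experiment (columns), with a dot where the adjusted p was under 0.05. Red columns of the sterol segments stand under GSK101, loading and IL-1 at 9 h, ABCA1 and ABCG1 are blue under these stimuli at 3 h, and SREBF1 and ELOVL6 are blue under IL-1 at 9 h (-1.56 and -1.18).

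GSK101, which opens TRPV4, raised genes of every role at 3 h. Of the 34 genes 23 rose and 3 fell, beside 40.0% of all genes (22.0% up and 18.0% down). The median log2 fold change of the 34 genes was 0.36, against 0.01 over all genes tested. HMGCS1 stood at 670.2, 698, 697 and 731 CPM against the DMSO values above (log2 fold change 1.27 ± 0.07, adjusted p = 1.0e-15), and INSIG1 at 639, 675, 672 and 656 (log2 fold change 1.00 ± 0.06, adjusted p = 4.4e-14). SQLE, squalene epoxidase, was 2.12-fold higher at 392, 414, 408 and 425 CPM against 203, 199.6, 196 and 174 (log2 fold change 1.09 ± 0.07, adjusted p = 8.5e-14). MSMO1, a sterol demethylase, stood at 179, 201, 199.7 and 206 against 99.03, 88.5, 89.9 and 81.8 (log2 fold change 1.13 ± 0.07, adjusted p = 1.1e-13). In all of these the lowest GSK101 library was above the highest DMSO library.

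Under GSK101 the fatty acid genes rose as well, 6 of 7 at 3 h. FASN, the fatty acid synthase (ENSSSCG00000029944, chromosome 12, 922405 to 937560), stood at 1348, 1347, 1501 and 1220.0 CPM against 575, 579, 600.4 and 851 (log2 fold change 1.06 ± 0.11, adjusted p = 4.1e-09), and one DMSO library was well above the other 3. MYLIP rose, at 49.01, 50.7, 50.1 and 51.5 against 23.3, 25.7, 23.5 and 27.2 (log2 fold change 1.01 ± 0.10, adjusted p = 8.2e-10), while the other LXR targets ABCA1 (-0.43 ± 0.09) and ABCG1 (-0.69 ± 0.12) fell. SREBF1 rose (0.49 ± 0.11), with libraries at 170.5, 136, 154 and 118 CPM against 107, 81.00, 104 and 121, so that 1 GSK101 library lay inside the DMSO range. PMVK, phosphomevalonate kinase, fell (-0.28 ± 0.08).

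The GSK101 libraries at 3 h were deeper than their controls, at 62677053 to 80223797 counts against 20651530 to 29904509. They also held a smaller share of small RNAs, 2.78 to 4.34% against 6.46 to 13.2%. With protein-coding genes alone the count of called genes at 3 h was 27 of 34. Marker sums in GSK101 and DMSO libraries were 113780.2 to 125209 and 87472 to 104574 CPM for chondrocytes, 188 to 199 and 237 to 247 for synovial fibroblasts, 90.3 to 91.9 and 76.3 to 87.4 for adipocytes, and 21.7 to 24.4 and 24.6 to 31.03 for leukocytes. The part of depth, small RNAs and markers in the result was not tested. Beyond the 34, 3 of 10 other sterol and uptake genes rose and 1 fell, and 7 of 16 other fatty acid genes rose and 1 fell.

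By 9 h GSK101 had moved 32 of the 34 genes, 22 up and 10 down, where 62.3% of all genes were called (29.3% higher, 33.0% lower). NPC1 (ENSSSCG00000003707, chromosome 6, 108403126 to 108450486) stood at 300.0, 293, 299.7 and 289 CPM against 116, 109, 109 and 104 (log2 fold change 1.43 ± 0.05, adjusted p = 7.6e-22). ACAT2, the thiolase that starts the mevalonate segment, stood at 498, 486, 472 and 486 against 186, 169.9, 168 and 180.3 (log2 fold change 1.46 ± 0.05, adjusted p = 8.2e-22). SC5D stood at 193, 217, 213 and 209 against 77.4, 78.8, 77.7 and 80.5 (log2 fold change 1.41 ± 0.05, adjusted p = 2.1e-21). The groups did not overlap for any of them. NSDHL, a sterol dehydrogenase, gave 201, 209, 205 and 206 CPM against 90.6, 83.7, 80.8 and 77.2 (log2 fold change 1.31 ± 0.05, adjusted p = 7.7e-21).

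The 10 genes that fell with GSK101 at 9 h came from every role, and their share (29.4%) was no higher than that of all genes (33.0%). ABCG1 dropped to 1.69, 1.47, 1.44 and 1.44 CPM from 5.09, 5.48, 5.42 and 4.45, which is 70.5% lower (log2 fold change -1.76 ± 0.19, adjusted p = 7.2e-10). SREBF1 stood at 49.3, 44.9, 43.9 and 41.6 CPM against 69.2, 86.1, 77.1 and 73.8 (log2 fold change -0.77 ± 0.09, adjusted p = 8.4e-09), the opposite direction to 3 h. SCAP (-0.57 ± 0.06), PMVK (-0.63 ± 0.09), ACACA (-0.51 ± 0.05) and MVK, mevalonate kinase (-0.47 ± 0.08), fell with them. The call of TM7SF2 (-0.26 ± 0.11) was lost in 6 of the 8 fits that left out 1 library. Of 10 other sterol and uptake genes 5 rose and 4 fell. Of 8 LXR receptors, partners and targets 3 rose and 2 fell, among them the LXR partner RXRA (-1.95 ± 0.07). At 9 h the synovial fibroblast markers summed to 291 to 297 CPM with GSK101 against 165 to 182 in DMSO, the chondrocyte markers to 69486 to 72339.5 against 80752 to 85414 and the endothelial markers to 5.08 to 6.02 against 2.92 to 4.77. Their part in the result was not tested.

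The log2 fold change with GSK101 was higher at 9 h than at 3 h for 10 genes and lower for 14, where 45.8% of all genes differed (23.1% higher, 22.8% lower). ACAT2 (1.08 ± 0.09, adjusted p = 3.0e-15), NPC1 (0.93 ± 0.07, adjusted p = 1.3e-16) and FDFT1 (0.79 ± 0.07) had the largest increases. SREBF1 (-1.21 ± 0.15, adjusted p = 2.9e-09), ABCG1 (-1.03 ± 0.22) and IDI1, isopentenyl diphosphate isomerase (-0.68 ± 0.11), had the largest decreases. Within the mevalonate segment it was lower at 9 h for IDI1 and HMGCS1 (-0.30 ± 0.10) and higher for ACAT2 and FDPS (0.50 ± 0.16).

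**Figure D2:**
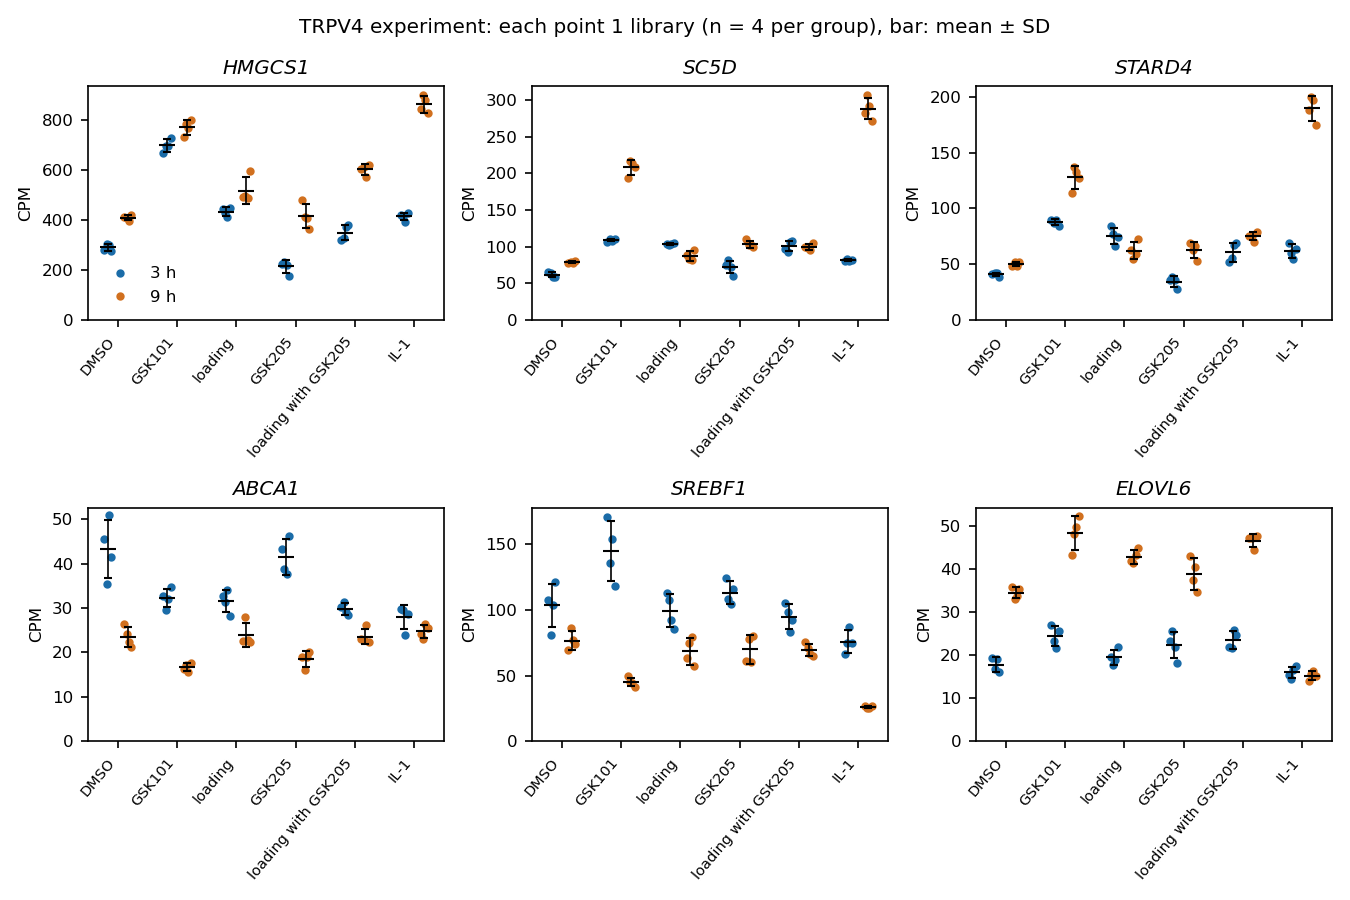
CPM of 6 genes in each of the 48 libraries of the TRPV4 experiment, by condition, at 3 h (blue) and 9 h (orange). Points are libraries and black marks show mean ± SD (n = 4). HMGCS1, SC5D and STARD4 are highest under GSK101 or IL-1 at 9 h, ABCA1 is highest in DMSO and GSK205 at 3 h, and SREBF1 and ELOVL6 are lowest under IL-1 at 9 h.

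Whether TRPV4 is needed for the loading response was asked with the antagonist GSK205. With GSK205 present, loading raised 17 of the 34 genes at 3 h and lowered 2, against loading-free GSK205 constructs and a background of 11.9% (7.58% higher, 4.35% lower). INSIG1 stood at 537, 519, 564 and 573 CPM against 299.8, 309, 285 and 244 (log2 fold change 0.95 ± 0.06, adjusted p = 2.7e-12). HMGCS1 stood at 319, 326, 373 and 378 against 225, 233, 222 and 177 (log2 fold change 0.71 ± 0.07, adjusted p = 7.2e-09). FDFT1 stood at 148, 150.3, 150.3 and 159 against 99.9, 96.8, 94.6 and 85.5 (log2 fold change 0.69 ± 0.05, adjusted p = 1.5e-10). These groups did not overlap. STARD4 (0.82 ± 0.09) and MVD (0.86 ± 0.10) rose too, and ABCA1 (-0.48 ± 0.09) and SREBF2 (-0.28 ± 0.08) fell. Other sterol and uptake genes gave 3 rises of 10. The synovial fibroblast markers summed to 217 to 236 CPM against 238 to 251 with GSK205 alone, and their part in the result was not tested.

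At 9 h 23 genes rose and 1 fell under loading with GSK205 against GSK205 (background 18.0%, 8.82% higher and 9.20% lower). ACAT2 stood at 250.1, 254, 237 and 246 CPM against 192, 163, 154 and 182 (log2 fold change 0.51 ± 0.05, adjusted p = 1.3e-08). HSD17B7, a sterol ketone reductase, stood at 78.2, 75.9, 76.2 and 82.4 against 59.1, 51.95, 50.5 and 47.4 (log2 fold change 0.58 ± 0.06, adjusted p = 9.6e-08). Neither gene's groups overlapped. SREBF2 was again the gene that fell (-0.33 ± 0.06), and of 10 other sterol and uptake genes 8 rose. The synovial fibroblast markers summed to 211 to 227 CPM against 175 to 191 and the adipocyte markers to 71.9 to 74.3 against 60.5 to 66.1, and their part in the result was not tested. Libraries of loading with GSK205 at 9 h held 30861957 to 40167217 counts against 21979662 to 27721944 with GSK205, and the part of depth was not tested.

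The difference between the loading effects with and without GSK205 was tested directly. At 3 h it was called for FDFT1 alone (0.29 ± 0.08, adjusted p = 0.035), where 2.25% of all genes were called. The direction was a larger log2 rise with the antagonist: FDFT1 stood at 184, 166, 169 and 179 CPM in loaded and 128, 141, 130.3 and 132 in DMSO libraries. Its lowest group mean at 3 h was with GSK205 alone (94.2 CPM) and its highest with loading alone (174 CPM). The larger rise thus began lower and did not reach the level of loading alone. The FDFT1 call was lost in 10 of the 16 fits that left out 1 library (highest adjusted p = 0.087). These were the fits without DMSO replicate 2 or 4, GSK205 replicate 3 or 4, or loading replicate 2 or 3. It was also lost without any 1 library of loading with GSK205. Without GSK205 replicate 4 the difference was called for 2 other genes, both downwards. At 9 h the difference was called for HSD17B7 (0.39 ± 0.09), ACACA (0.36 ± 0.07) and SCD (0.29 ± 0.06) (4.64% of all genes, 2.22% higher, 2.41% lower), upwards as for FDFT1. ACACA stood at 83.5, 75.5, 77.1 and 74.3 CPM with both, 68.6, 75.01, 67.6 and 71.1 with GSK205, 59.1, 60.3, 64.8 and 62.4 with loading and 75.5, 75.6, 70.7 and 64.8 with DMSO. It was thus low with loading alone, and the 9 h count was 5 without GSK205 replicate 1 or 4 or loading replicate 4. For the other 33 and 31 genes a p above the threshold does not show that the antagonist left the response alone.

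Set against loading alone, loading with GSK205 gave lower values at 3 h for 10 genes and higher for 0, with 15.3% of all genes called (7.11% higher, 8.16% lower). HMGCS1 stood at 319, 326, 373 and 378 CPM against 443, 428, 412 and 450.1 (log2 fold change -0.31 ± 0.07, adjusted p = 0.0017). NPC1 stood at 86.7, 87.3, 90.3 and 89.00 against 103, 102, 97.1 and 103 (log2 fold change -0.19 ± 0.05, adjusted p = 0.0042). In each, every library with the antagonist was the lower. The others were FASN (-0.36 ± 0.11), STARD4 (-0.32 ± 0.09), IDI1 (-0.29 ± 0.07), HSD17B7 (-0.27 ± 0.05), SQLE (-0.26 ± 0.07), ACAT2 (-0.24 ± 0.07), FDFT1 (-0.20 ± 0.05) and SCD (-0.18 ± 0.05), and the count was 6 without loading replicate 1. At 9 h the order was turned: 6 genes were higher and 0 lower with GSK205 (4.10% of all genes, 2.11% higher, 1.99% lower). These were ACACA (0.33 ± 0.05), STARD4 (0.27 ± 0.07), INSIG1 (0.26 ± 0.04), SCD (0.24 ± 0.05), HMGCS1 (0.22 ± 0.06) and SC5D (0.19 ± 0.05), and 3 of them were left without loading replicate 1, 2 or 3 or without replicate 1 or 4 of loading with GSK205.

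GSK205 itself shifted these genes in free-swelling constructs. At 3 h it lowered 10 and raised 4, where 27.1% of all genes were called (14.6% higher, 12.5% lower), and 4 of the 7 mevalonate genes fell. FDFT1 stood at 99.9, 96.8, 94.6 and 85.5 CPM, all under the DMSO libraries given above (log2 fold change -0.49 ± 0.05, adjusted p = 7.5e-08). ACAT2 stood at 121, 114, 113 and 100.7 against 133, 166, 143 and 141 (log2 fold change -0.37 ± 0.07, adjusted p = 9.2e-05). MVK (ENSSSCG00000009931, chromosome 14, 41320790 to 41357437) stood at 18.97, 16.5, 18.04 and 15.4 against 20.9, 25.3, 24.95 and 26.7 (log2 fold change -0.51 ± 0.09, adjusted p = 1.2e-04). None of these overlapped. HMGCS1 (-0.44 ± 0.07), MVD (-0.44 ± 0.10) and FASN (-0.45 ± 0.11) fell too, and INSIG2 (0.35 ± 0.09), ELOVL6 (0.33 ± 0.10), SC5D (0.22 ± 0.06) and CYP51A1 (0.20 ± 0.05) rose. Of 10 other sterol and uptake genes 3 fell and none rose, and of 16 other fatty acid genes 6 rose and 5 fell, with PLIN2, which coats lipid droplets, at -0.54 ± 0.06. Each of the calls of ELOVL6, INSIG1, NSDHL, SC5D and STARD4 was lost in at least 1 fit that left out a library. Adipocyte markers summed to 97.4 to 115 CPM with GSK205 and 76.3 to 87.4 in DMSO, and their part in the result was not tested.

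At 9 h GSK205 alone raised 5 genes and lowered 6 (21.2% of all genes, 12.1% higher and 9.15% lower). INSIG1, which had fallen at 3 h (-0.22 ± 0.06), was higher at 469, 429, 416 and 435 CPM against 342, 330.0, 332 and 319 (log2 fold change 0.40 ± 0.04, adjusted p = 1.9e-08). SC5D was higher at 110.2, 102, 103 and 98.9 against 77.4, 78.8, 77.7 and 80.5 (log2 fold change 0.40 ± 0.05, adjusted p = 9.3e-07). TM7SF2, a sterol reductase, fell (-0.47 ± 0.11), as did ABCA1 (-0.35 ± 0.08), at 18.9, 16.05, 18.9 and 20.2 CPM against 26.5, 24.1, 22.4 and 21.2. The count was 7 without DMSO replicate 1 or 3. Chondrocyte markers summed to 68088 to 77505 CPM against 80752 to 85414 in DMSO, and their part in the result was not tested.

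IL-1, the inflammatory cytokine, split the group at 3 h: 12 genes rose and 10 fell, where 32.2% of all genes were called (18.5% higher, 13.7% lower). ACAT2 stood at 241, 282, 262 and 251 CPM, against the DMSO values above (log2 fold change 0.83 ± 0.07, adjusted p = 9.5e-12), and NPC1 at 106, 107, 107 and 109 against 75.8, 78.2, 80.8 and 81.7 (log2 fold change 0.44 ± 0.05, adjusted p = 4.8e-09). ABCG1 stood at 4.08, 5.30, 4.76 and 4.95 CPM (log2 fold change -1.18 ± 0.13, adjusted p = 5.8e-09), and ABCA1 stood at 29.9, 29.7, 23.99 and 28.6 (log2 fold change -0.63 ± 0.09, adjusted p = 1.2e-06). For all 4 genes the IL-1 and DMSO libraries did not overlap. SREBF1 (-0.45 ± 0.11), SREBF2 (-0.29 ± 0.08), FASN (-0.41 ± 0.11), SCD (-0.22 ± 0.05) and ACACA (-0.19 ± 0.06) fell, while FDPS (0.66 ± 0.12), STARD4 (0.59 ± 0.09), HMGCS1 (0.51 ± 0.07) and SC5D (0.40 ± 0.06) rose. Of 10 other sterol and uptake genes 2 rose and 2 fell. Of 16 other fatty acid genes 2 rose and 2 fell, with ACSL1 at 3.10 ± 0.07. The leukocyte markers summed to 46.5 to 54.8 CPM with IL-1 at 3 h against 24.6 to 31.03 in DMSO, and the synovial fibroblast markers to 186 to 200.2 against 237 to 247. Their part in the result was not tested.

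At 9 h IL-1 raised most of the pathway. Of the 34 genes 24 rose and 6 fell, beside 65.1% of all genes (30.6% higher, 34.5% lower), and the median log2 fold change of the 34 genes was 0.59, against -0.07 over all genes tested. STARD4 stood at 188, 199.5, 197 and 175 CPM against 48.04, 51.6, 48.6 and 51.5, 3.80-fold higher (log2 fold change 1.93 ± 0.07, adjusted p = 4.2e-21). SC5D stood at 283, 307, 292 and 272 (log2 fold change 1.88 ± 0.05, adjusted p = 5.0e-25), ACAT2 at 624, 626, 632 and 601 (log2 fold change 1.82 ± 0.05, adjusted p = 1.5e-24) and NPC1 at 367, 362, 354 and 375 (log2 fold change 1.73 ± 0.05, adjusted p = 2.4e-24). All lay far above the DMSO libraries given above. By role, 5 of 7 mevalonate genes, 8 of 10 squalene and sterol genes, 3 of 5 transport and export genes and 6 of 7 fatty acid genes rose. IL-1 libraries at 9 h were deeper than their controls, at 36091153 to 63598533 counts against 24190041 to 35352928 in DMSO. The part of depth in the result was not tested.

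The genes that fell under IL-1 at 9 h included the gene for SREBP-1 and an elongase that SREBP-1 is known to switch on. SREBF1 (ENSSSCG00000033626, chromosome 12, 60733967 to 60750951) stood at 26.8, 25.1, 25.2 and 26.7 CPM against 69.2, 86.1, 77.1 and 73.8, 66.1% lower (log2 fold change -1.56 ± 0.09, adjusted p = 6.1e-16). ELOVL6 (ENSSSCG00000036236, chromosome 8, 112038670 to 112190079) stood at 13.9, 15.5, 16.3 and 15.2 CPM against 35.7, 33.00, 33.8 and 35.2 (log2 fold change -1.18 ± 0.07, adjusted p = 1.6e-16). FASN and SCD, further known targets of SREBP-1, rose instead (0.82 ± 0.10 and 0.83 ± 0.05), FASN from 641, 666, 625 and 571 CPM in DMSO to 1093, 1125, 950.4 and 1255. SCAP (-0.56 ± 0.06), PMVK (-0.47 ± 0.09), ABCG1 (-0.77 ± 0.16) and SREBF2 (-0.23 ± 0.06) also fell. Outside the 34, 10 of 16 other fatty acid genes rose, first among them the acyl-CoA synthetase ACSL1 (5.78 ± 0.07), and 4 of 10 other sterol and uptake genes rose. The leukocyte markers summed to 87.9 to 97.1 CPM in IL-1 libraries at 9 h against 25.1 to 33.8 in DMSO. This rise came from CD14 and CD68, since PTPRC and CD3E were under 1 CPM in every library and LYZ was at 0. The synovial fibroblast markers summed to 194 to 202 against 165 to 182 and the adipocyte markers to 48.01 to 50.3 against 64.2 to 71.6, and the part of these markers in the result was not tested.

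With IL-1 the log2 fold change was higher at 9 h than at 3 h for 24 genes and lower for 4, with 38.8% of all genes differing (18.5% higher, 20.4% lower). The 4 were SREBF1 (-1.07 ± 0.15), ELOVL6 (-0.98 ± 0.12), PMVK (-0.47 ± 0.12) and SCAP (-0.39 ± 0.09). Several genes crossed from a fall to a rise: FASN by 1.27 ± 0.16 (adjusted p = 2.0e-09), SCD by 1.09 ± 0.07 (adjusted p = 8.5e-19) and FDFT1 by 0.77 ± 0.07. GSK101, loading, GSK205 and IL-1 were each set against the same 4 DMSO libraries at each time, so their values are not independent of each other.

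Those DMSO controls themselves moved between the harvests. From 3 h to 9 h 20 of the 34 genes rose and 6 fell (22.2% of all genes, 10.4% higher and 11.8% lower), including all 7 mevalonate genes among the rises. CYP51A1 went from 179, 182, 172 and 179 to 273, 259.9, 268 and 273 CPM on the scale of the model of both times (log2 fold change 0.60 ± 0.05, adjusted p = 1.3e-14). ABCA1 went from 46.3, 35.9, 51.9 and 42.3 to 25.8, 23.5, 21.9 and 20.8 (log2 fold change -0.94 ± 0.09, adjusted p = 4.1e-12). The times did not overlap for either gene. ABCG1 (-1.15 ± 0.14), MYLIP (-0.54 ± 0.09), SREBF1 (-0.49 ± 0.11), SREBF2 (-0.37 ± 0.07) and SCD (-0.20 ± 0.05) fell as well. When the libraries of one number were left out, 4 of these calls were lost: ACACA in 3 of 4 fits (highest adjusted p = 0.27), ACAT2 in 2 of 4 (0.099), FDPS in 1 of 4 (0.076) and SCD in 1 of 4 (0.065). DMSO marker sums at 3 h and 9 h, scaled within each time, were 87472 to 104574 and 80752 to 85414 CPM for chondrocytes. They were 237 to 247 and 165 to 182 for synovial fibroblasts, and 76.3 to 87.4 and 64.2 to 71.6 for adipocytes. The part of markers in these time differences was not tested. In the PIEZO1 experiment, NT vehicle constructs gave 3 rises and 6 falls over the same interval (16.1% of all genes), with INSIG1 going from 100.1, 115, 103 and 92.9 to 50.9, 60.1, 56.1 and 50.5 CPM (log2 fold change -0.92 ± 0.19, adjusted p = 1.4e-04). That count was 4 without the libraries numbered 2.

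**Figure D3:**
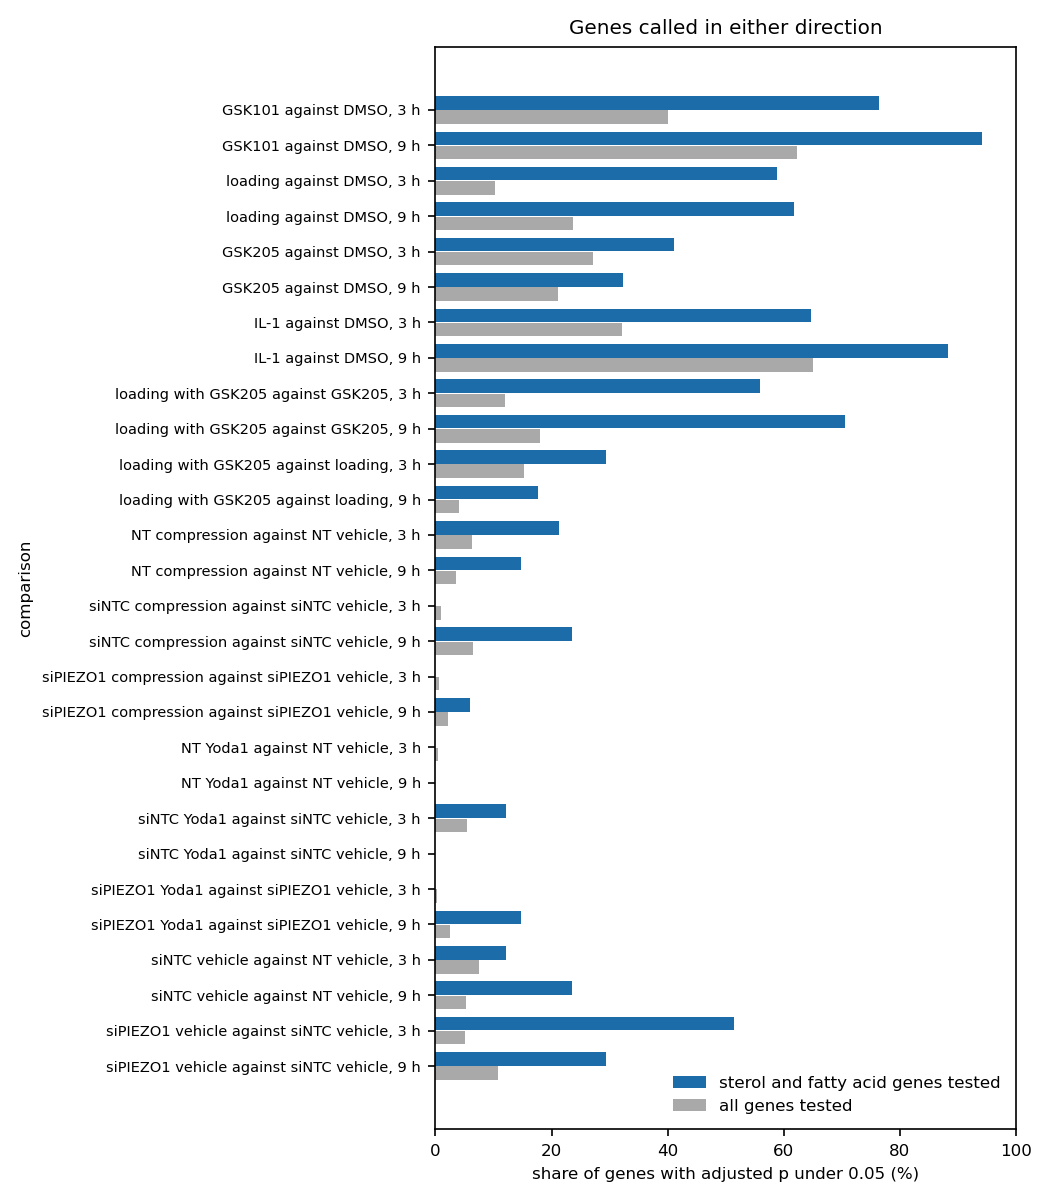
Share of genes with an adjusted p under 0.05 in either direction, for the 33 or 34 genes (blue) and for all genes tested (grey), in each comparison of groups at 3 h and 9 h. The blue bar is the longer wherever any of these genes was called, for example 20 of 34 genes against 10.2% for loading at 3 h. Some PIEZO1 bars rest on few genes, as 2 of 34 against 2.18% for siPIEZO1 compression at 9 h. No blue bar is drawn where 0 were called, as for NT Yoda1.

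In the PIEZO1 experiment the knockdown was checked first. PIEZO1 stood at 4.22, 5.01, 4.68 and 5.18 CPM in siPIEZO1 and 3.71, 5.10, 6.99 and 6.73 in siNTC vehicle libraries at 3 h (log2 fold change -0.24 ± 0.19, adjusted p = 0.58). At 9 h it stood at 2.24, 4.25, 4.52 and 2.80 against 6.48, 6.36, 5.31 and 3.80 (log2 fold change -0.66 ± 0.23, adjusted p = 0.062). Both pairs of groups overlapped and neither passed the test, so directions below are those of the libraries labelled siPIEZO1. The siPIEZO1 mix held 3 siRNAs, shown because every siPIEZO1 result below rests on them. They are written in the order the protocol lists their bases, with no strand named there, and no part is in capitals:
siPIEZO1a: cagcgagaucucgcacuccauc
siPIEZO1b: uacgaccugcugcagcuccug
siPIEZO1c: acccgcuggccaugcaguucuu
The non-targeting siRNA's sequence was not used here.

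Vehicle constructs labelled siPIEZO1 had higher levels of many sterol genes than siNTC at 3 h. Of 33 genes tested 17 rose and 0 fell, where 5.07% of all 18330 genes were called (2.54% higher, 2.53% lower). The median log2 fold change of the 33 was 0.43, against 0.04 over all genes. TM7SF2 (ENSSSCG00000013004, chromosome 2, 7076778 to 7081502) stood at 90.2, 88.3, 77.5 and 89.8 CPM against 29.6, 28.6, 33.3 and 35.9, 2.71-fold higher (log2 fold change 1.44 ± 0.14, adjusted p = 5.7e-09). ELOVL6 stood at 162, 138, 147 and 159 against 89.7, 87.02, 89.3 and 94.6 (log2 fold change 0.75 ± 0.09, adjusted p = 2.5e-07). NSDHL stood at 483, 338, 358 and 369 against 259, 246, 244 and 264 (log2 fold change 0.61 ± 0.09, adjusted p = 7.6e-06). The groups did not overlap for any of them, and replicate 1 of siPIEZO1 was the highest NSDHL library. By segment 5 of 7 mevalonate and 8 of 10 squalene and sterol genes rose, among them MVD (1.06 ± 0.25), DHCR7 (0.76 ± 0.13), FDPS (0.72 ± 0.11), HSD17B7 (0.67 ± 0.11), MVK (0.58 ± 0.10) and ACAT2 (0.55 ± 0.08). Of 4 transport and export genes tested none was called, and none of 10 other sterol and uptake genes was. Of 16 other fatty acid genes 5 rose, with PLIN2 at 0.54 ± 0.09.

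At 9 h the same comparison gave 8 rises and 2 falls (10.8% of all genes, 4.81% higher and 6.03% lower). TM7SF2 stood at 85.1, 87.8, 78.5 and 84.9 CPM against 47.2, 48.4, 36.7 and 35.3 (log2 fold change 1.00 ± 0.17, adjusted p = 9.6e-05). DHCR7, the final reductase of cholesterol synthesis (ENSSSCG00000021181, chromosome 2, 2377352 to 2391846), stood at 175, 164, 159.7 and 146 against 102, 106, 74.6 and 66.6 (log2 fold change 0.89 ± 0.17, adjusted p = 3.7e-04). Both were without overlap. STARD4 (-0.36 ± 0.12) and ACLY (-0.19 ± 0.06) fell. Their calls were lost in 5 and 7 of the 8 fits that left out 1 library (highest adjusted p = 0.25 and 0.21). The count fell to 6, 4 and 3 without siNTC replicates 1, 3 and 4, and to 5 without siPIEZO1 replicate 4, and the calls of TM7SF2 and DHCR7 were kept in all of these fits.

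Chondrocyte markers moved with the siRNA state. Summed over the 9 markers, vehicle libraries at 3 h held 32892 to 36417 CPM in NT, 27241 to 28124 in siNTC and 15285 to 21648 in siPIEZO1. The 5 synovial fibroblast markers summed to 892 to 1064, 522 to 562 and 318 to 366 CPM. At 9 h the siNTC and siPIEZO1 vehicle libraries held 24867 to 36714 and 18969 to 23561 CPM of chondrocyte markers, and 568 to 844 and 361 to 447 of synovial fibroblast markers. Their part in the sterol gene differences was not tested.

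Transfection with the non-targeting siRNA raised some of the same pathway against NT. At 3 h 4 genes rose and 0 fell (7.53% of all genes, 4.15% higher), namely TM7SF2 (0.79 ± 0.14), NPC1 (0.74 ± 0.15), SQLE (0.30 ± 0.06) and CYP51A1 (0.29 ± 0.08). TM7SF2 stood at 29.6, 28.6, 33.3 and 35.9 CPM against 15.7, 18.5, 19.1 and 20.2 in NT (adjusted p = 1.5e-04), without overlap. At 9 h 8 rose and 0 fell (5.30% of all genes, 2.67% higher). MVK stood at 123, 121, 105 and 85.03 against 77.2, 55.7, 76.5 and 51.2 (log2 fold change 0.74 ± 0.13, adjusted p = 2.5e-04) and HMGCS1 at 665, 681, 727 and 716 against 514, 511, 555 and 546 (log2 fold change 0.39 ± 0.08, adjusted p = 0.0021). Neither overlapped, and the count was 5 without siNTC replicate 2 and 13 without siNTC replicate 4. The siNTC vehicle libraries serve both this comparison and that with siPIEZO1.

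A single slow compression of NT constructs lowered 6 of the 33 genes tested at 3 h and raised 1, against 6.27% of all genes (2.09% lower, 4.18% higher). MVK stood at 47.1, 44.5, 45.5 and 37.8 CPM against 61.4, 74.1, 73.1 and 64.6 (log2 fold change -0.64 ± 0.10, adjusted p = 1.8e-05). INSIG1 stood at 52.3, 54.9, 54.4 and 45.8 against 100.3, 115, 102 and 93.04, 49.5% lower (log2 fold change -0.99 ± 0.19, adjusted p = 7.6e-04). IDI1 stood at 278, 286, 264 and 319 against 456, 399, 415 and 359 (log2 fold change -0.51 ± 0.12, adjusted p = 0.008). Every compressed library was under every vehicle library for these 3 genes. MVD (-0.87 ± 0.26), DHCR7 (-0.50 ± 0.13) and FDFT1 (-0.30 ± 0.08) fell too. The riser was NPC1, at 51.6, 46.8, 55.6 and 50.2 CPM against 26.7, 24.9, 32.1 and 44.8 (log2 fold change 0.67 ± 0.15, adjusted p = 0.0053), with 1 vehicle library well above the other 3. The calls of MVD and DHCR7 were lost in 6 and 3 of the 8 fits that left out 1 library.

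At 9 h the compressed NT constructs stood above vehicle instead, with 5 genes higher and 0 lower (3.51% of all genes, 2.15% higher): MVK (0.87 ± 0.13), DHCR7 (0.62 ± 0.17), HSD17B7 (0.44 ± 0.11), FDPS (0.36 ± 0.11) and ACAT2 (0.34 ± 0.07). MVK stood at 86.2, 149.8, 124 and 117 CPM against 77.2, 55.7, 76.5 and 51.2 (adjusted p = 1.2e-04). DHCR7 stood at 70.7, 132, 112 and 99.5 against 81.5, 73.97, 65.2 and 48.4. Compressed replicate 1 lay under the other 3 for both and overlapped vehicle for DHCR7. Without it 14 genes were higher and 0 lower. The count was 1 without compressed replicate 2, 2 without replicate 3, and 3 without vehicle replicate 2 or 3. Marker sums in compressed and vehicle NT libraries at 9 h were 38221 to 43719.9 and 28746 to 38147 CPM for chondrocytes and 13.6 to 52.7 and 9.42 to 11.4 for leukocytes, and their part in the result was not tested.

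The compression effect was tested between the times, and its log2 fold change was higher at 9 h than at 3 h for 13 genes and lower for 2 (9.21% of all genes, 4.63% higher and 4.58% lower). MVK differed by 1.51 ± 0.17 (adjusted p = 7.2e-10), INSIG1 by 1.35 ± 0.26 (adjusted p = 2.8e-04) and DHCR7 by 1.12 ± 0.22 (adjusted p = 4.0e-04). ACAT2 (0.59 ± 0.11) and MVD (1.32 ± 0.35) followed. The count was 5 without the libraries numbered 2 and 8 without those numbered 3.

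**Figure D4:**
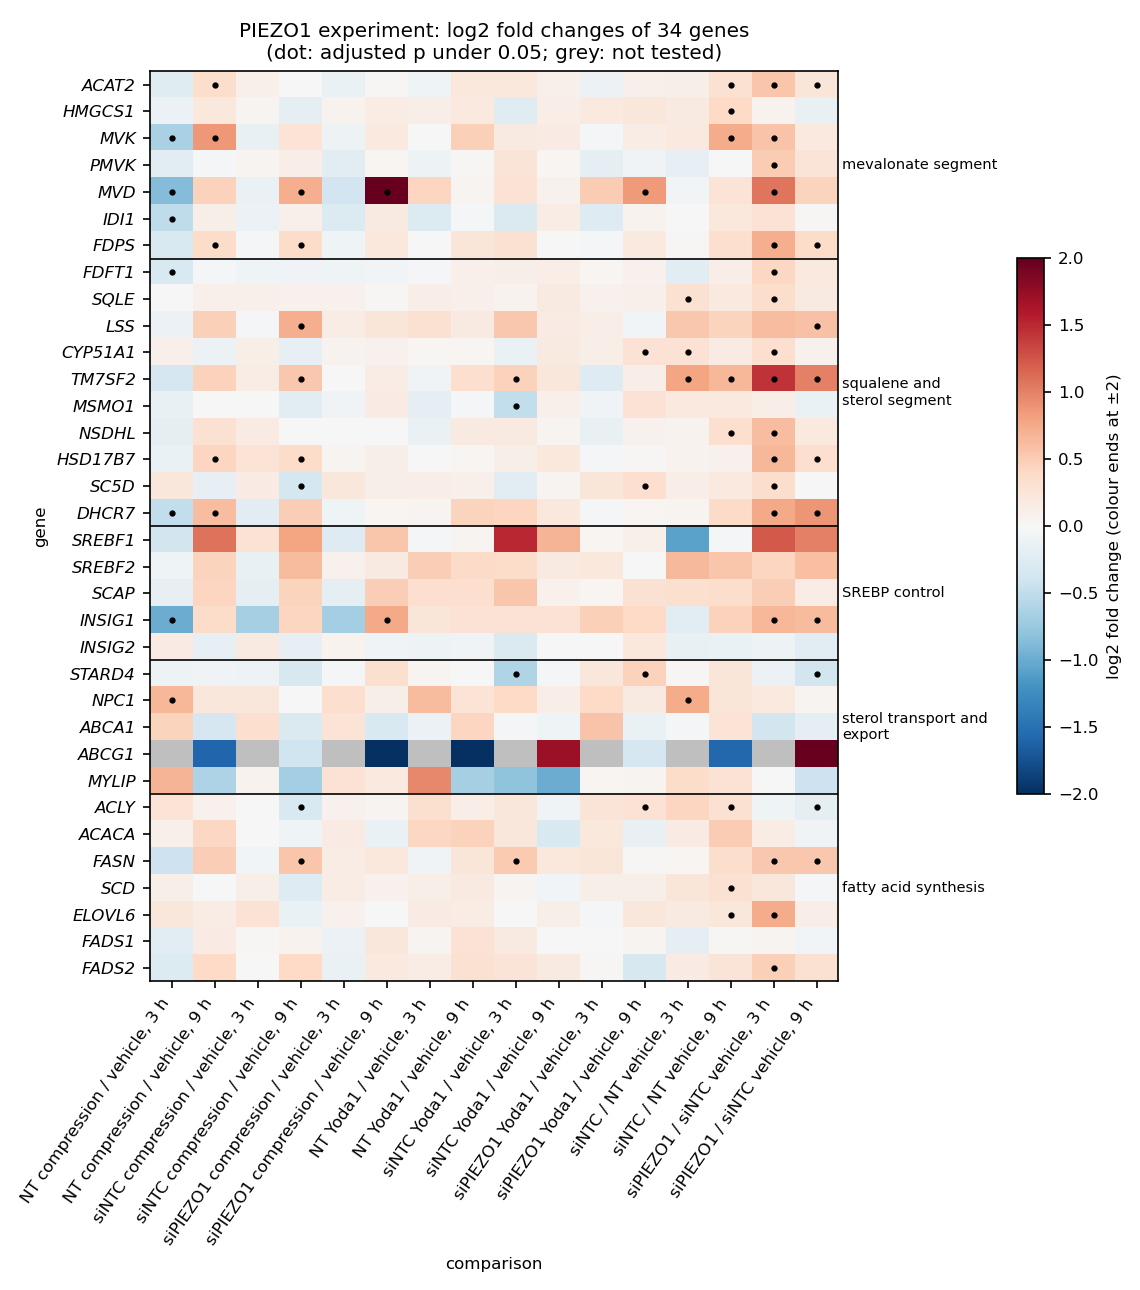
Log2 fold change of the 34 genes (rows, grouped by role) in 16 comparisons of the PIEZO1 experiment (columns), with a dot where the adjusted p was under 0.05 and grey where ABCG1 was not tested. The columns for siPIEZO1 against siNTC hold the most dots (17 at 3 h), the NT compression column is blue at 3 h for MVK, MVD and INSIG1 and red for MVK at 9 h, and the deep colours of ABCG1 and SREBF1 rest on very low counts and carry no dot.

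In transfected cells compression called 0 of 33 genes at 3 h, both with siNTC (3 at an unadjusted p under 0.05, 1 by DESeq2, 0.911% of all genes called by edgeR) and with siPIEZO1 (4 unadjusted, 1 by DESeq2, 0.600% of all genes). INSIG1 stood at 62.3, 62.98, 55.2 and 43.9 CPM against 74.9, 94.01, 105 and 81.3 in siNTC (log2 fold change -0.66 ± 0.19, adjusted p = 0.086), with no overlap, and at 81.6, 116, 84.4 and 67.8 against 83.4, 171, 184 and 122 in siPIEZO1 (log2 fold change -0.68 ± 0.19, adjusted p = 0.085), where the groups overlapped. The difference between the siPIEZO1 and siNTC responses to compression at 3 h was called for 0 genes (0 unadjusted, 0 by DESeq2, 0.00% of all genes). For INSIG1 that difference was -0.02 ± 0.27.

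At 9 h compression with siNTC raised 6 genes and lowered 2 (6.43% of all genes, 2.77% higher, 3.65% lower). ACLY, which makes cytosolic acetyl-CoA, fell and stood at 1087, 969.7, 1031 and 989 CPM against 1275, 1274, 1264 and 1237 (log2 fold change -0.31 ± 0.06, adjusted p = 0.0027). LSS, lanosterol synthase, rose and stood at 57.6, 65.6, 79.7 and 61.7 against 54.00, 42.00, 35.7 and 28.4 (log2 fold change 0.73 ± 0.15, adjusted p = 0.0036). Neither overlapped. SC5D fell too (-0.35 ± 0.08), and MVD (0.73 ± 0.22), FASN (0.55 ± 0.17), TM7SF2 (0.54 ± 0.17), FDPS (0.37 ± 0.11) and HSD17B7 (0.36 ± 0.11) rose. The count was 5, 2 and 4 without siNTC compression replicates 2, 3 and 4, and 3 without siNTC vehicle replicate 3 or 4. Leukocyte markers summed to 30.3 to 50.6 CPM with compression and 7.58 to 23.5 without, and their part in the result was not tested.

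With siPIEZO1, compression raised 2 genes at 9 h and lowered 0 (2.18% of all genes, 1.34% higher). MVD stood at 71.5, 127, 82.1 and 67.1 CPM against 20.1, 20.2, 21.98 and 20.2, 4.22-fold higher (log2 fold change 2.08 ± 0.22, adjusted p = 6.2e-08), and INSIG1 stood at 172, 227, 208 and 192 against 125, 129.6, 146 and 71.3 (log2 fold change 0.76 ± 0.17, adjusted p = 0.0071). Both groups were apart, with siPIEZO1 vehicle replicate 4 far under the other 3 for INSIG1. Without it INSIG1 lost its call (adjusted p = 0.061). MVD (ENSSSCG00000034905, chromosome 6, 1008100 to 1014303) lies 40987 bases from PIEZO1 (914480 to 967113) on chromosome 6. The strand setting of the counting is not given in the sources used here.

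The MVD response to compression at 9 h differed between siRNAs, by 1.35 ± 0.31 on the log2 scale (adjusted p = 0.02). In siNTC it stood at 21.3, 22.4, 30.5 and 26.4 CPM with compression and 15.7, 16.4, 14.2 and 14.5 without, all under the compressed siPIEZO1 libraries. STARD4 (0.66 ± 0.17), SC5D (0.47 ± 0.12) and ACLY (0.36 ± 0.09) also differed, which makes 4 of 34 where 1.09% of all genes were called (0.999% higher). The 4 calls rest on few libraries: the count was 0 without siPIEZO1 vehicle replicate 4 and 1 or 2 without siNTC compression replicate 2 or 3, siNTC vehicle replicate 1, 3 or 4, siPIEZO1 compression replicate 1, 2 or 4 or siPIEZO1 vehicle replicate 2. The MVD call was lost without siPIEZO1 compression replicate 2, the highest of its group (1.11 on the log2 scale, adjusted p = 0.062), and without siPIEZO1 vehicle replicate 4.

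**Figure D5:**
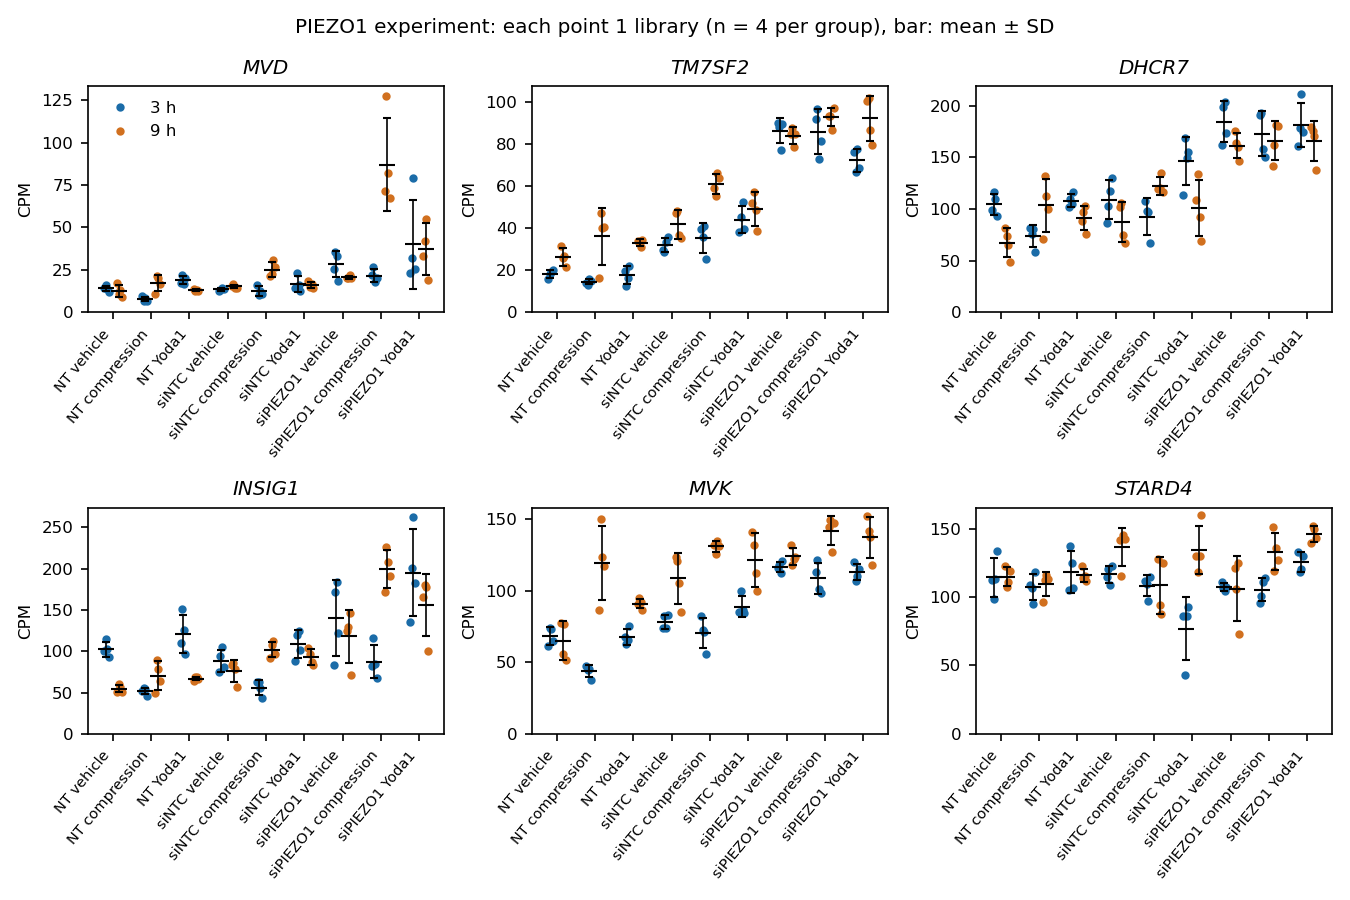
CPM of 6 genes in each of the 72 libraries of the PIEZO1 experiment, by siRNA state and stimulus, at 3 h (blue) and 9 h (orange). Points are libraries and black marks show mean ± SD (n = 4). TM7SF2 and DHCR7 are highest in the siPIEZO1 groups whatever the stimulus, MVK and INSIG1 are lowest in compressed NT constructs at 3 h, and MVD reaches 127 CPM in 1 compressed siPIEZO1 library at 9 h.

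Few of these genes were called with Yoda1, which opens PIEZO1, and a p above the threshold does not show that a gene was unmoved. In NT constructs 0 of 33 and 0 of 34 were called at 3 h and 9 h (7 and 13 at an unadjusted p under 0.05, 2 and 0 by DESeq2), where edgeR called 0.409% (0.0709% lower) and 0.00% of all genes. NPC1 at 3 h stood at 54.9, 50.4, 46.1 and 48.1 CPM against 26.7, 24.9, 32.1 and 44.8 (log2 fold change 0.63 ± 0.15, adjusted p = 0.052). These libraries did not overlap, yet the adjusted p was above the threshold. Without NT vehicle replicate 4 the 3 h count was 2. At 9 h 29 of the 34 log2 fold changes in NT constructs were above 0, though none was called. The change of the Yoda1 effect between the times was called for 0 genes (5 unadjusted, 1 by DESeq2, 0.0990% of all genes).

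With siNTC, Yoda1 raised 2 genes and lowered 2 at 3 h (5.40% of all genes, 1.47% higher, 3.93% lower). STARD4 stood at 86.00, 43.3, 85.9 and 92.9 CPM against 115, 121, 109 and 123 (log2 fold change -0.60 ± 0.13, adjusted p = 0.0067) and MSMO1 at 535, 261, 549 and 576 against 730.1, 676, 643 and 663 (log2 fold change -0.50 ± 0.13, adjusted p = 0.02). All Yoda1 libraries were the lower, replicate 2 by far. FASN (0.52 ± 0.15) and TM7SF2 (0.47 ± 0.14) rose. The count was 1 without Yoda1 replicate 2, and 2 without siNTC vehicle replicate 1 or 3. STARD4 kept its call in all of these fits, MSMO1 lost it without Yoda1 replicate 2 or siNTC vehicle replicate 1, and FASN and TM7SF2 each lost it in 5 of 8. At 9 h 0 of 34 were called (3 unadjusted, 0 by DESeq2, 0.00% of all genes).

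With siPIEZO1, Yoda1 called 0 of 33 genes at 3 h (7 unadjusted, 0 by DESeq2, 0.262% of all genes). At 9 h 5 rose and 0 fell (2.54% of all genes, 1.70% higher): MVD (0.85 ± 0.22), STARD4 (0.46 ± 0.12), SC5D (0.34 ± 0.08), ACLY (0.29 ± 0.06) and CYP51A1 (0.29 ± 0.07). ACLY stood at 1422, 1297, 1300.2 and 1401 CPM against 1052, 1003, 1231 and 1152 (adjusted p = 0.011). SC5D stood at 274, 281, 287 and 297 against 220.5, 213, 266 and 203. Neither overlapped, but the count ran from 0 without siPIEZO1 vehicle replicate 2 to 8 without vehicle replicate 3. It was 1 without Yoda1 replicate 2 or vehicle replicate 4, and 2 without Yoda1 replicate 3 or 4. The same siPIEZO1 vehicle libraries at 9 h serve this comparison, that with siNTC vehicle and those of compression with siPIEZO1. They also enter the difference in compression effect between the siRNAs, so these results are not independent of each other.

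The response to Yoda1 differed between siPIEZO1 and siNTC at 3 h for 1 gene of 33, STARD4 (0.83 ± 0.19, adjusted p = 0.03, 0.938% of all genes). It stood at 133, 118, 121 and 130.0 CPM with Yoda1 and 111, 107, 104 and 108 without in siPIEZO1, where the siNTC libraries fell. The call was lost without siNTC vehicle replicate 1, 2 or 4 or siPIEZO1 Yoda1 replicate 4, and the count was 2 and 3 without siNTC Yoda1 replicates 1 and 4. At 9 h 0 of 34 genes differed (6 unadjusted, 1 by DESeq2, 0.0269% of all genes), and 1 did without siPIEZO1 vehicle replicate 3.

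The genes also differed in how closely libraries of a group agreed. The median coefficient of variation within groups, per gene, ran from 2.28 to 16.0% at 3 h and 2.48 to 10.3% at 9 h in the TRPV4 experiment. In the PIEZO1 experiment it ran from 3.83 to 131% and from 4.72 to 116%. ABCG1 gave the highest values there, since its libraries held 0 to 0.599 CPM at 3 h, so that no fold is given for it in that experiment. SREBF1 was likewise low, with NT vehicle libraries at 0.699, 0.487, 0.435 and 0.340 CPM at 3 h, where DMSO libraries of the TRPV4 experiment held 107, 81.00, 104 and 121. FASN stood at 6.73, 7.40, 6.69 and 5.43 and 575, 579, 600.4 and 851 CPM in the same groups. The kits differed between these libraries and the difference was not tested.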

How the data were processed

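The deposited table held whole-number counts per gene for 120 libraries, made by the authors with Trim Galore, STAR and HTSeq on Sscrofa11.1, per the submitters' processing notes. Whether counting used strand is not given in the sources used here. Of 32388 lines, 481 repeats with identical counts were removed. TRPV4 libraries were made after removal of ribosomal RNA and PIEZO1 libraries with a low-input kit, per the labels' protocols, although the labels call both polyA RNA. Symbols came from the table, and positions of 33 genes from the RefSeq annotation of Sscrofa11.1.

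Each experiment and time was fitted apart with edgeR 4.0.16 in R 4.3.3 (TMM scaling, filterByExpr with a minimum count of 10, 1 coefficient per group, quasi-likelihood test), and p-values were adjusted by Benjamini-Hochberg over all genes of a comparison. Effects between times came from a model of both times. The alternatives were DESeq2 1.42.0, RLE size factors, no filter, protein-coding genes only, a replicate block, and leaving out each library. The members and lists were chosen with earlier results of these data known. Genes named outside the 34 were called genes among the 3 of lowest adjusted p in each comparison, and some of these are not reported here. Values per library are given for up to 4 called members of low adjusted p and for members set against them. Replicate numbers did not pair the samples. Over 408 pairs of same-numbered libraries the correlation of deviations ran from -0.132 to 0.146. Most low counts were even numbers (52.3 to 74.8% per library), and the cause was not tested.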

Additional observations from a re-analysis of the deposited data

Results flagged for a closer look

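Of 165 groups of 4 libraries examined for the genes and groups reported, 12 held 1 library apart from the other 3 by Dixon's test at the 95% level, and chance gives about 1 in 20. In the PIEZO1 experiment at 3 h these were ACAT2 in siPIEZO1 vehicle replicate 1 (1794 CPM), CYP51A1 in siNTC vehicle replicate 3 (475.0 CPM) and TM7SF2 in siPIEZO1 vehicle replicate 3 (77.5 CPM). The library of siNTC Yoda1 replicate 2 stood apart for both MSMO1 (261 CPM) and STARD4 (43.3 CPM), the genes that fell with Yoda1. At 9 h they were MVD in siPIEZO1 vehicle replicate 3 (22.0 CPM), SC5D in siPIEZO1 compression replicate 1 (278 CPM) and STARD4 in siNTC vehicle replicate 2 (116 CPM). In the TRPV4 experiment they were CYP51A1 in loading replicate 4 at 3 h (259 CPM) and, at 9 h, INSIG1 in loading replicate 4 (439 CPM), INSIG1 in loading with GSK205 replicate 1 (525 CPM) and SCD in DMSO replicate 4 (534 CPM).

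Tests of a difference between effects, by edgeR, were passed in several places. The log2 fold change with loading was higher in GSK205 for FDFT1 at 3 h (0.29 ± 0.08) and for ACACA (0.36 ± 0.07), HSD17B7 (0.39 ± 0.09) and SCD (0.29 ± 0.06) at 9 h. That with Yoda1 at 3 h was higher with siPIEZO1 than with siNTC for STARD4 (0.83 ± 0.19). That with compression at 9 h was higher with siPIEZO1 for MVD (1.35 ± 0.31), STARD4 (0.66 ± 0.17), SC5D (0.47 ± 0.12) and ACLY (0.36 ± 0.09). Between 3 h and 9 h the effect differed for 24 genes with GSK101, 5 with loading, 28 with IL-1 and 15 with compression of NT constructs.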

How the results depend on the processing

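Over the comparisons, 421 calls of a gene were made. None changed sign under any alternative, and 123 were lost under at least 1. The difference in loading effect with GSK205 at 3 h, 1 gene, became 2 with protein-coding genes only, 0 with the replicate block and 3 by DESeq2. NT Yoda1 at 3 h, 0 genes, became 1 with RLE size factors, with no filter, with protein-coding genes only and with the replicate block, and 2 by DESeq2. With the replicate block, compression at 3 h gave 1 gene in siNTC and 1 in siPIEZO1, and the siRNA difference in Yoda1 effect at 9 h gave 1. DESeq2 gave 1 for each of these and for the time difference of NT Yoda1, 7 for siNTC Yoda1 at 3 h (2 with no filter), 7 for siNTC against NT at 3 h, 4 for the siRNA difference in Yoda1 effect at 3 h and 8 for NT compression at 9 h. The siRNA difference in compression effect at 9 h gave 2 with RLE size factors. The numbers did not pair the libraries, so the block says nothing of effect strength.

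Leaving out 1 library gave these ranges. Loading with GSK205 against loading gave 6 to 12 at 3 h and 3 to 7 at 9 h. The GSK205 difference in loading effect gave 0 to 2 at 3 h and 3 to 5 at 9 h. GSK205 at 9 h gave 7 to 14. NT Yoda1 at 3 h gave 0 to 2, siNTC Yoda1 at 3 h 1 to 6, siPIEZO1 compression at 3 h 0 to 1 and the siRNA difference in Yoda1 effect 0 to 3 at 3 h and 0 to 1 at 9 h. At 9 h NT compression gave 1 to 14, siNTC compression 2 to 11, siPIEZO1 compression 1 to 2, siPIEZO1 Yoda1 0 to 8, siNTC against NT 5 to 13, siPIEZO1 against siNTC 3 to 9 and the siRNA difference in compression effect 0 to 5. The time differences gave 2 to 7 for loading, 4 to 9 for NT vehicle and 5 to 17 for NT compression. The causes were not tested. In the PIEZO1 experiment at 3 h ABCG1 and SREBF1 held at most 28 and 50 counts in a library, which limits the precision of their values.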
